A study of Mus musculus with 12 samples.

Results

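Cells detect foreign or misplaced RNA and DNA with a small group of nucleic acid sensors. Followed here were 7 genes of this system: Ddx58, Ifih1, Dhx58, Zbp1, Eif2ak2, Trim25 and Tlr3. Trim25 encodes a regulator of a sensor and is counted among the 7 sensors below. The genes were taken by name from a table of 16283 genes, and all 7 were in it and had enough reads to be tested. The cells were 4T1, a mammary carcinoma line from BALB/c mice, and the study asked how the transcription factor gene Cebpd bears on their response to interferon gamma (IFN-γ). There were 6 groups of 2 libraries each, 12 libraries in all: 4T1 cells with the Cebpd guide sgRNA1, with the Cebpd guide sgRNA2 or with a Rosa26 guide as the control, each given IFN-γ (20 ng/ml for 24 h) or vehicle. All 3 lines carry a guide RNA, and the Rosa26 locus that the control guide targets is a commonly used neutral site. The labels do not say whether a line is 1 clone or a mixed population. Nor do they say whether both libraries of a group are from different cultures, and p-values therefore measure only the spread between libraries, which may be technical. In such bulk samples, fewer cells with a transcript and less of it per cell cannot be told apart.

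The RIG-I-like receptors are RNA helicases that bind double-stranded RNA in the cytosol: Ddx58 encodes RIG-I, Ifih1 encodes MDA5 and Dhx58 encodes LGP2, which lacks the signalling domains of the other 2 and modulates them. RIG-I and MDA5 signal through the mitochondrial adaptor MAVS to type I interferon genes, and Trim25, a ubiquitin ligase, promotes signalling by RIG-I. Zbp1 binds left-handed Z-form nucleic acids and can start necroptosis, Eif2ak2 (PKR) halts translation by phosphorylating eIF2α once it binds double-stranded RNA, and Tlr3 detects double-stranded RNA in endosomes rather than in the cytosol. These genes are themselves interferon-stimulated: IFN-γ acts at promoter elements called GAS, and type I interferon and IRF factors act at interferon-stimulated response elements (ISRE).

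All coordinates are in GRCm38. Ddx58 (ENSMUSG00000040296.15) lies at chr4:40203773-40239828 on the minus strand. Ifih1 (ENSMUSG00000026896.14) lies at chr2:62595798-62646255 and Zbp1 (ENSMUSG00000027514.14) at chr2:173206612-173218923, both on the minus strand. Chromosome 11 holds Dhx58 (ENSMUSG00000017830.15, chr11:100694884-100704271, minus strand) and Trim25 (ENSMUSG00000000275.16, chr11:88999376-89020293, plus strand). Eif2ak2 (ENSMUSG00000024079.4) lies at chr17:78852564-78882573 and Tlr3 (ENSMUSG00000031639.12) at chr8:45395665-45411080, both on the minus strand. The library kit does not mark strand, so reads of genes on the opposite strand cannot be told apart from theirs. That touches 141 of the 3272 exonic bases of Dhx58, 221 of the 5113 of Eif2ak2 and 381 of the 5207 of Tlr3, and none of the exonic bases of the other 4 genes.

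The promoters were searched for both kinds of interferon element because every gene of the set was higher with IFN-γ. RefSeq windows (GRCm38.p6, 250 bases before to 50 bases after the gene start) matched for Ddx58, Ifih1, Tlr3, Eif2ak2 and Trim25, which is 5 of the 7. Both strands were searched for the ISRE core GAAANNGAAA and for the GAS pattern TTCNNNGAA. Of these 5 windows, 3 held the ISRE core (Ddx58, Ifih1 and Eif2ak2) and 1 held the GAS pattern (Eif2ak2), while the windows of Tlr3 and Trim25 held neither. Of 32851 windows of the same length, 3.44% held the ISRE core and 8.30% the GAS pattern. The matches of the 3 genes are shown on the gene's strand, 5′ to 3′, with the match in capitals and up to 10 bases on either side.
Ddx58, ISRE core on the other strand, chr4:40239804-40239833: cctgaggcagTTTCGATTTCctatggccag
Ifih1, ISRE core, chr2:62646206-62646233: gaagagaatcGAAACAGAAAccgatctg
Eif2ak2, ISRE core, chr17:78882535-78882564: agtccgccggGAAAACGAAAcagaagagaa
Eif2ak2, GAS pattern, chr17:78882732-78882760: ctgcagagctTTCCCAGAAtggaagccag
The ISRE core matches lay just downstream of the RefSeq gene start, 2 bases after it in Ddx58 and 32 bases after it in Ifih1. In Eif2ak2 the GAS match lay 178 bases before the start, and it shared no base with the ISRE core match. These are letter matches, and no binding was measured.

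Libraries held 16912710 to 24784371 reads on genes, of which 3135 to 16560 were on the 7 sensors. Levels are CPM (read counts scaled to a common library size) after TMM scaling, and a gene is called higher or lower at an adjusted p below 0.05 in the quasi-likelihood test of edgeR (Benjamini-Hochberg, over the 13601 genes tested). Cebpd mRNA was present in every group, so its level does not check the guide labels. It had 45.9 and 45.6 CPM in sgRNA1 cells with IFN-γ, 30.2 and 29.4 CPM in sgRNA2 cells with IFN-γ and 53.5 and 49.1 CPM in control cells with IFN-γ. With vehicle it had 13.6 and 13.4 CPM in sgRNA1 cells, 10.6 and 8.51 CPM in sgRNA2 cells and 9.09 and 7.13 CPM in control cells. Against control cells, Cebpd was called higher in sgRNA1 cells with vehicle (log2 0.74, adjusted p = 5.53e-05). It was called lower in sgRNA2 cells with IFN-γ (-0.78, adjusted p = 3.03e-07). It was not called in sgRNA2 cells with vehicle (0.24) or in sgRNA1 cells with IFN-γ (-0.17). The 7 epithelial markers in the table summed to 2614 to 4062 CPM over the libraries, lowest in sgRNA1 cells with IFN-γ.

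With IFN-γ, all 7 sensor genes were called higher than with vehicle in all 3 cell lines. Genes called higher made up 31.7% of the genes tested in sgRNA1 cells, 30.5% in sgRNA2 cells and 36.4% in control cells. Genes called lower made up 29.6%, 29.2% and 34.1% in the same 3 lines, and no sensor was among them. The median log2 fold change of the 7 sensors was 1.91 in sgRNA1 cells, 1.42 in sgRNA2 cells and 2.20 in control cells, beside medians over all tested genes of -0.00066, -0.016 and 0.011. The response ran from 1.30 for Trim25 to 8.80 for Zbp1 on the log2 scale in control cells, and the highest adjusted p of the 7 genes in any of the 3 lines was 1.57e-09.

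**Figure D1:**
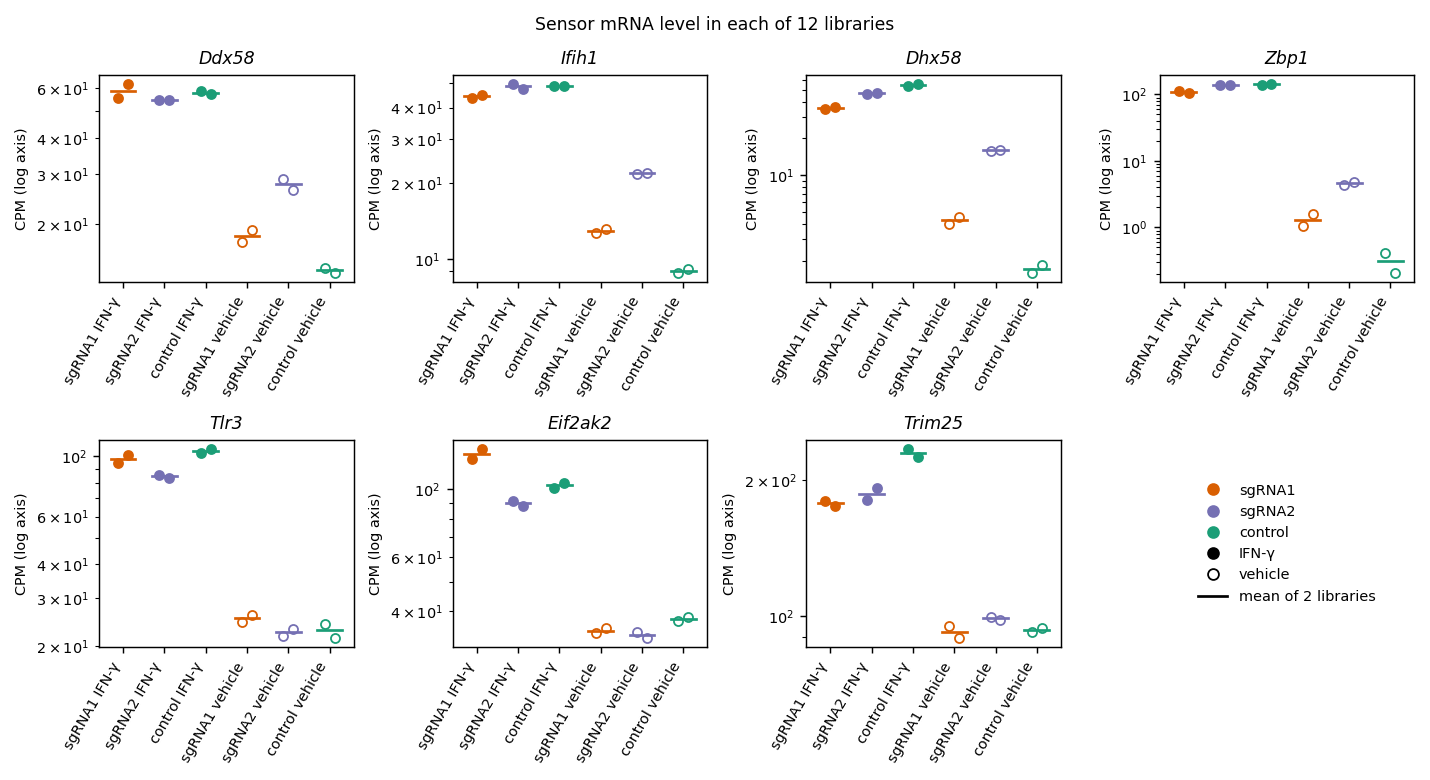
Level of each sensor mRNA in each of the 12 libraries, in CPM on a log axis whose range differs between panels. Filled points are IFN-γ libraries, open points vehicle libraries, colours the 3 cell lines and short lines the mean of 2 libraries. The filled points lie above the open ones in all 7 panels, and among the open points Ddx58, Ifih1, Dhx58 and Zbp1 are lowest in control cells and highest in sgRNA2 cells.

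Ddx58, which encodes RIG-I, had 55.3 and 62.2 CPM in sgRNA1 cells with IFN-γ, against 17.2 and 19.0 CPM with vehicle. In sgRNA2 cells it had 54.6 and 54.6 CPM with IFN-γ, against 28.8 and 26.3 CPM with vehicle. Control cells had 58.6 and 57.4 CPM with IFN-γ, against 14.0 and 13.5 CPM with vehicle. The 3 lines lay close together with IFN-γ and apart with vehicle, where no library of one line overlapped those of another. The log2 fold change with IFN-γ was 1.70 ± 0.08 in sgRNA1 cells, 0.98 ± 0.07 in sgRNA2 cells and 2.08 ± 0.08 in control cells (± SE).

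Ifih1, which encodes MDA5, showed the same order. It had 43.6 and 45.0 CPM in sgRNA1 cells with IFN-γ, against 12.7 and 13.2 CPM with vehicle. The sgRNA2 cells had 49.6 and 47.5 CPM with IFN-γ, against 21.8 and 22.0 CPM with vehicle. Levels in control cells were 48.7 and 48.6 CPM with IFN-γ, against 8.83 and 9.12 CPM with vehicle. With vehicle the sgRNA2 libraries were the highest and the control libraries the lowest, with no overlap. The log2 fold change with IFN-γ was 1.77 ± 0.07, 1.15 ± 0.06 and 2.44 ± 0.07 in sgRNA1, sgRNA2 and control cells.

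Dhx58, which encodes LGP2, changed the most of the 3 helicases. Its levels in sgRNA1 cells were 34.9 and 36.5 CPM with IFN-γ, against 3.98 and 4.59 CPM with vehicle. In sgRNA2 cells they were 46.5 and 47.3 CPM with IFN-γ, against 15.9 and 16.2 CPM with vehicle. In control cells they were 53.6 and 55.8 CPM with IFN-γ, against 1.60 and 1.83 CPM with vehicle. The order of the lines differed between treatments: sgRNA2 cells were highest with vehicle and control cells were highest with IFN-γ, without overlap in either. The log2 fold change was 3.07 ± 0.10 in sgRNA1 cells, 1.55 ± 0.08 in sgRNA2 cells and 4.99 ± 0.11 in control cells. From summed counts, the ratio of IFN-γ to vehicle was 8.39 (95% exact interval 7.11 to 9.96) in sgRNA1 cells, 2.93 (2.67 to 3.22) in sgRNA2 cells and 31.8 (24.9 to 41.3) in control cells. These intervals, and those given for Zbp1, cover counting error only. The SE restates the test, and for Dhx58 in sgRNA1 and control cells it is smaller than counting error alone.

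Zbp1 had the widest range of the 7. With IFN-γ it reached 112.0 and 106.4 CPM in sgRNA1 cells, 140.7 and 137.4 CPM in sgRNA2 cells and 140.4 and 143.8 CPM in control cells. With vehicle it had 1.06 and 1.57 CPM in sgRNA1 cells, 4.41 and 4.77 CPM in sgRNA2 cells and 0.413 and 0.210 CPM in control cells. The control vehicle values rest on 8 and 4 reads, beside 21 and 26 reads in sgRNA1 cells and 85 and 84 reads in sgRNA2 cells. The ratio of IFN-γ to vehicle from summed counts was 84.7 (63.6 to 115) in sgRNA1 cells, 30.3 (26.0 to 35.5) in sgRNA2 cells and 455 (260 to 881) in control cells. These 3 intervals do not overlap. The log2 fold changes were 6.40 ± 0.11, 4.92 ± 0.08 and 8.80 ± 0.13 in the same 3 lines. These SE restate the test and are smaller than counting error alone. In control cells, leaving out 1 library gave log2 fold changes of 8.41 to 9.36.

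Tlr3, the endosomal receptor, had 94.7 and 101.5 CPM in sgRNA1 cells with IFN-γ, against 24.5 and 26.1 CPM with vehicle. It had 85.5 and 83.1 CPM in sgRNA2 cells with IFN-γ, against 21.8 and 23.1 CPM with vehicle. Control cells had 103.1 and 106.2 CPM with IFN-γ, against 24.2 and 21.4 CPM with vehicle. With vehicle the control libraries overlapped those of sgRNA2 cells. The log2 fold change was 1.96 ± 0.06 in sgRNA1 cells, 1.91 ± 0.07 in sgRNA2 cells and 2.20 ± 0.07 in control cells, a range much narrower than that of Dhx58 or Zbp1.

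Eif2ak2, the kinase PKR, had 125.5 and 134.8 CPM in sgRNA1 cells with IFN-γ, against 34.1 and 35.2 CPM with vehicle. In sgRNA2 cells it had 91.4 and 88.3 CPM with IFN-γ, against 34.2 and 32.8 CPM with vehicle. Its levels in control cells were 101.0 and 104.7 CPM with IFN-γ, against 37.3 and 38.4 CPM with vehicle. It was the only member whose IFN-γ libraries were highest in sgRNA1 cells, without overlapping either of the other 2 lines. The log2 fold change was 1.91 ± 0.06 in sgRNA1 cells, 1.42 ± 0.06 in sgRNA2 cells and 1.44 ± 0.06 in control cells.

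Trim25, the ubiquitin ligase, had 179.4 and 175.5 CPM in sgRNA1 cells with IFN-γ, against 94.9 and 89.5 CPM with vehicle. It had 180.7 and 191.8 CPM in sgRNA2 cells with IFN-γ, against 99.6 and 98.0 CPM with vehicle. In control cells it had 233.7 and 224.8 CPM with IFN-γ, against 92.0 and 94.0 CPM with vehicle. With IFN-γ both guide lines lay below the control libraries. The log2 fold change was 0.94 ± 0.05 in sgRNA1 cells, 0.92 ± 0.05 in sgRNA2 cells and 1.30 ± 0.05 in control cells, the smallest response of the 7 in each line.

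**Figure D2:**
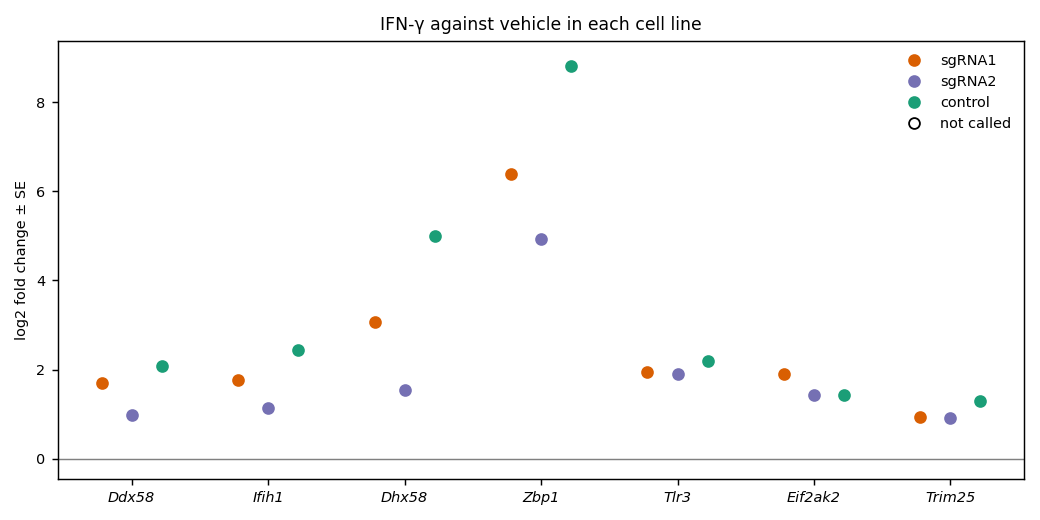
Log2 fold change of each sensor, IFN-γ against vehicle, in sgRNA1, sgRNA2 and control cells (points ± SE, which is smaller than most points, with 2 libraries a group). The SE restates the test. For Zbp1, and for Dhx58 in sgRNA1 and control cells, it is smaller than counting error alone. All 21 values were called higher, and for Ddx58, Ifih1, Dhx58 and Zbp1 the control value is the highest and the sgRNA2 value the lowest.

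With vehicle, the cytosolic RNA helicases and Zbp1 were already higher in both Cebpd guide lines than in control cells, and with TMM scaling the other 3 sensors were not. The guide comparisons share the control libraries, so their values are given side by side and not as separate evidence. In sgRNA1 cells 4 of 7 sensors were called higher and 0 lower, where 25.6% of all tested genes were called higher and 26.9% lower. In sgRNA2 cells 4 were called higher and 1 lower, where 38.3% were called higher and 35% lower. With upper quartile scaling in place of TMM, the median of all genes moved by 0.10 on the log2 scale in sgRNA1 cells and 0.17 in sgRNA2 cells. The share of calls that were higher was 62.8% with upper quartile scaling and 48.8% with TMM in sgRNA1 cells, and 62.5% and 52.3% in sgRNA2 cells.

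Dhx58 and Zbp1 differed most. Zbp1 was higher by 2.03 ± 0.35 (log2; adjusted p = 0.000105) in sgRNA1 cells and by 3.85 ± 0.26 (adjusted p = 2.14e-10) in sgRNA2 cells than in control cells. In counts this was a ratio of 4.13 (95% exact interval 2.16 to 8.56) for sgRNA1 cells and 14.7 (8.18 to 28.9) for sgRNA2 cells. These intervals are wider than the SE of the same differences imply. For Dhx58 the log2 difference from control cells was 1.31 ± 0.16 (adjusted p = 2.62e-06) in sgRNA1 cells and 3.22 ± 0.13 (adjusted p = 1.48e-13) in sgRNA2 cells. The Dhx58 level in sgRNA2 cells with vehicle was 29.3% of the mean of control cells with IFN-γ, beside 7.83% in sgRNA1 cells and 3.14% in control cells with vehicle. For Zbp1 the same shares were 3.23%, 0.924% and 0.219%.

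Ifih1 was higher by 0.53 ± 0.09 in sgRNA1 cells (adjusted p = 6.57e-05) and by 1.29 ± 0.08 in sgRNA2 cells (adjusted p = 8.63e-11). Ddx58 was higher by 0.39 ± 0.09 in sgRNA1 cells (adjusted p = 0.00139) and by 1.01 ± 0.09 in sgRNA2 cells (adjusted p = 5.91e-09). In sgRNA2 cells with vehicle, Ddx58 stood at 47.5% and Ifih1 at 45.0% of the mean of control cells with IFN-γ. The corresponding values were 31.2% and 26.6% in sgRNA1 cells and 23.7% and 18.5% in control cells. All 8 of these differences kept their direction and their call under every alternative tried.

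Tlr3 was not called in either line, with log2 differences of 0.14 ± 0.08 in sgRNA1 cells (adjusted p = 0.12) and -0.03 ± 0.08 in sgRNA2 cells (adjusted p = 0.777). With upper quartile scaling the Tlr3 values were 0.25 (adjusted p = 0.0101) and 0.14, and without the first control vehicle library that of sgRNA1 cells was 0.24 (adjusted p = 0.042). Trim25 was not called either, at -0.01 ± 0.05 in sgRNA1 cells (adjusted p = 0.873) and 0.09 ± 0.05 in sgRNA2 cells (adjusted p = 0.116), but with upper quartile scaling the second was 0.25 (adjusted p = 0.000143). Eif2ak2 was at -0.13 ± 0.06 in sgRNA1 cells (adjusted p = 0.085) and was called lower in sgRNA2 cells at -0.18 ± 0.06 (adjusted p = 0.016). That last call was lost with upper quartile scaling (-0.01, adjusted p = 0.893) and without the second control vehicle library (-0.16, adjusted p = 0.0752).

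The summed level of 5 leukocyte and macrophage markers followed the same order of lines in vehicle. It was 29.0 and 27.1 CPM in sgRNA1 cells, 46.6 and 48.4 CPM in sgRNA2 cells and 14.7 and 16.3 CPM in control cells. With IFN-γ it was 40.6 and 40.4 CPM in sgRNA1 cells, 45.9 and 46.0 CPM in sgRNA2 cells and 44.8 and 44.5 CPM in control cells. The sum came mostly from Cd68 (3.77 to 35.3 CPM over the 12 libraries), Cd14 (8.58 to 27.4 CPM) and Csf1r (0.308 to 9.02 CPM). The rest was Ptprc, with at most 0.567 CPM in any library, and Itgam, with at most 0.161 CPM. The part of these markers in the sensor result was not tested. Of the 8 listed leukocyte and macrophage markers 3 had no row in the gene counts and were not analysed. The same held for all 6 lymphocyte markers. The 3 fibroblast and endothelial markers in the table summed to at most 4.31 CPM.

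**Figure D3:**
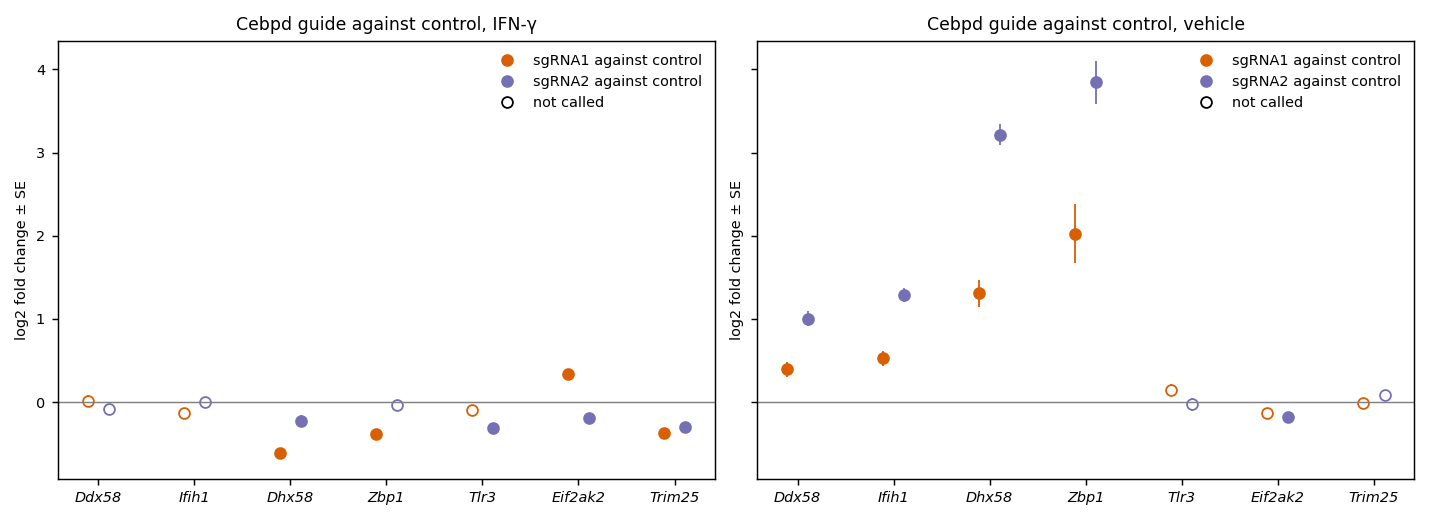
Log2 fold change of each sensor in sgRNA1 and sgRNA2 cells against control cells, with IFN-γ (left) and vehicle (right). Bars are the SE and open points were not called. In vehicle the SE of Zbp1 and Dhx58 is smaller than counting error alone. In vehicle Ddx58, Ifih1, Dhx58 and Zbp1 are above 0 for both guides, while with IFN-γ every called value except Eif2ak2 in sgRNA1 cells is below 0; the Dhx58 and Eif2ak2 calls of sgRNA2 cells with IFN-γ and the Eif2ak2 call in vehicle were lost with upper quartile scaling.

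With IFN-γ the pattern was another one. The 3 helicases and Zbp1 differed from control cells by less than in vehicle, while Trim25 in both guide lines and Tlr3 in sgRNA2 cells, not called in vehicle, were lower, and Eif2ak2 was higher in sgRNA1 cells. In sgRNA1 cells 3 sensors were called lower and 1 higher, where 33.3% of all genes were called lower and 31.6% higher. In sgRNA2 cells 4 were called lower and 0 higher, where 31.6% were called lower and 30.2% higher. The median log2 difference of the 7 was -0.14 in sgRNA1 cells and -0.20 in sgRNA2 cells, beside -0.0016 and 0.028 over all genes. The summed level of the 7 epithelial markers differed between the same groups: it was 2614 and 2624 CPM in sgRNA1 cells, 3305 and 3083 CPM in sgRNA2 cells and 4062 and 4014 CPM in control cells. With vehicle it was 3807 and 3718 CPM in sgRNA1 cells, 3959 and 3873 CPM in sgRNA2 cells and 3904 and 3952 CPM in control cells. Its part in the results with IFN-γ was not tested.

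Trim25 was lower in both lines, by a log2 difference of -0.37 ± 0.04 in sgRNA1 cells (adjusted p = 9.09e-07) and -0.30 ± 0.04 in sgRNA2 cells (adjusted p = 1.25e-05). Dhx58 was lower at -0.62 ± 0.07 in sgRNA1 cells (adjusted p = 2.5e-07) and at -0.22 ± 0.07 in sgRNA2 cells (adjusted p = 0.00695). The Dhx58 call in sgRNA2 cells was lost with upper quartile scaling (-0.12, adjusted p = 0.137), without the second control IFN-γ library (adjusted p = 0.0709) and without the first sgRNA2 IFN-γ library (adjusted p = 0.086). Zbp1 was lower in sgRNA1 cells (-0.38 ± 0.05, adjusted p = 4.77e-06), and in sgRNA2 cells its value was -0.03 ± 0.05 (adjusted p = 0.619).

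Eif2ak2 differed in opposite directions: it was higher in sgRNA1 cells (0.34 ± 0.05, adjusted p = 7.98e-06) and lower in sgRNA2 cells (-0.20 ± 0.05, adjusted p = 0.00246). The sgRNA2 call was lost with upper quartile scaling (-0.09, adjusted p = 0.127), which left 2 of 7 sensors called in that line. Tlr3 was lower in sgRNA2 cells (-0.31 ± 0.06, adjusted p = 8.72e-05) and was not called in sgRNA1 cells (-0.09 ± 0.06, adjusted p = 0.15). RIG-I and MDA5 transcripts were not called in either line. Ddx58 was at 0.02 ± 0.07 (adjusted p = 0.825) in sgRNA1 cells and -0.09 ± 0.07 (adjusted p = 0.262) in sgRNA2 cells. The values of Ifih1 were -0.14 ± 0.06 (adjusted p = 0.0507) in sgRNA1 cells, called with RLE size factors (-0.16, adjusted p = 0.026), and -0.0047 ± 0.058 (adjusted p = 0.952) in sgRNA2 cells.

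Whether the IFN-γ response itself differed between lines was tested as an interaction, the log2 response of a guide line minus that of control cells. The same value is the guide difference with IFN-γ minus that with vehicle, so it is not evidence apart from those differences. In sgRNA1 cells 6 of 7 responses were called smaller and 1 larger, where 28.2% of all tested genes had a lower and 26.9% a higher value. In sgRNA2 cells 6 were called smaller and 0 larger, where 34.7% were lower and 30.4% higher. For Zbp1 the difference of responses was -2.41 ± 0.35 in sgRNA1 cells (adjusted p = 1.53e-05) and -3.88 ± 0.27 in sgRNA2 cells (adjusted p = 4.45e-10). For Dhx58 it was -1.92 ± 0.18 in sgRNA1 cells (adjusted p = 4.84e-08) and -3.44 ± 0.15 in sgRNA2 cells (adjusted p = 7.01e-13). Both genes had a higher vehicle level in the guide lines, as given above.

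Ifih1 and Ddx58, whose vehicle levels were also higher in the guide lines, gave smaller differences of responses in the same direction. Those of Ifih1 were -0.66 ± 0.11 in sgRNA1 cells (adjusted p = 3.61e-05) and -1.29 ± 0.10 in sgRNA2 cells (adjusted p = 2.43e-09). For Ddx58 they came to -0.38 ± 0.11 in sgRNA1 cells (adjusted p = 0.00842) and -1.09 ± 0.11 in sgRNA2 cells (adjusted p = 6.31e-08). The first of these was not called without the second sgRNA1 vehicle library (-0.31, adjusted p = 0.0509). Trim25, whose vehicle levels were not called different, had -0.36 ± 0.07 in sgRNA1 cells (adjusted p = 0.00017) and -0.39 ± 0.07 in sgRNA2 cells (adjusted p = 5.22e-05).

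Tlr3 had the weakest interactions called, -0.24 ± 0.09 in sgRNA1 cells (adjusted p = 0.0395) and -0.29 ± 0.10 in sgRNA2 cells (adjusted p = 0.0133). The call in sgRNA1 cells was lost with DESeq2 (-0.25, adjusted p = 0.0732), in a fit of only the groups compared (-0.21, adjusted p = 0.0808) and without any of 7 libraries (adjusted p = 0.0973 to 0.222): the first of sgRNA1 with IFN-γ, sgRNA2 with IFN-γ and sgRNA2 with vehicle, and the second of control with IFN-γ, sgRNA1, sgRNA2 and control with vehicle. The call in sgRNA2 cells was lost without the first sgRNA2 IFN-γ library, either sgRNA2 vehicle library or the second control vehicle library (adjusted p = 0.0611 to 0.188). Eif2ak2 was the exception in sgRNA1 cells, with a larger response than in control cells (0.47 ± 0.08, adjusted p = 6.09e-05), and in sgRNA2 cells its difference was -0.02 ± 0.08 (adjusted p = 0.852).

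The 2 Cebpd guide lines were not alike. With vehicle, 4 sensors were called higher in sgRNA2 than in sgRNA1 cells and 0 lower, where 33.2% of all genes were higher and 29.1% lower. The log2 difference was 1.91 ± 0.11 for Dhx58 (adjusted p = 4.67e-11) and 1.82 ± 0.19 for Zbp1 (adjusted p = 1.68e-07). It was 0.76 ± 0.08 for Ifih1 (adjusted p = 1.14e-07) and 0.61 ± 0.08 for Ddx58 (adjusted p = 4.33e-06). So the lines stood in the order sgRNA2, sgRNA1, control for each of the 3 helicases and Zbp1, every step called. The remaining 3 sensors were between -0.17 and 0.10 on the log2 scale and were not called. The Trim25 value was called with upper quartile scaling (0.16, adjusted p = 0.00834), and that of Tlr3 without a filter on low counts (-0.19, adjusted p = 0.0449) and without either control vehicle library, the second sgRNA2 vehicle library or the first sgRNA2 IFN-γ library (adjusted p = 0.0368 to 0.0458).

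With IFN-γ 2 sensors were called higher in sgRNA2 than in sgRNA1 cells and 2 lower (28.6% each way). These shares are near the 23.4% higher and 24.5% lower over all genes. Dhx58 (0.39 ± 0.07, adjusted p = 0.000112) and Zbp1 (0.35 ± 0.05, adjusted p = 2.88e-05) were higher in sgRNA2 cells. Eif2ak2 (-0.54 ± 0.05, adjusted p = 1.19e-07) and Tlr3 (-0.22 ± 0.06, adjusted p = 0.00346) were lower, the second not without the second sgRNA1 IFN-γ library (-0.17, adjusted p = 0.0624). Ifih1 had 0.13 ± 0.06 (adjusted p = 0.0733), which was called with upper quartile scaling (0.17, adjusted p = 0.0258). The response to IFN-γ was smaller in sgRNA2 than in sgRNA1 cells for 5 sensors and larger for 0, where 21.9% of all genes had a lower and 20.9% a higher value. The differences of responses were -0.72 for Ddx58, -0.63 for Ifih1, -1.52 for Dhx58, -1.47 for Zbp1 and -0.49 for Eif2ak2, with adjusted p of at most 8.28e-05.

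Levels of different genes can be set side by side only per length, as CPM per kilobase of merged exons (RPKM, mean of 2 libraries). With IFN-γ, Zbp1 and Trim25 were the most abundant sensor transcripts, at 30.9 and 30.8 RPKM in sgRNA1 cells, 39.4 and 32.4 in sgRNA2 cells and 40.3 and 39.8 in control cells. Their libraries overlapped in sgRNA1 and control cells but not in sgRNA2 cells. Eif2ak2 followed at 25.5, 17.6 and 20.1 RPKM and Tlr3 at 18.8, 16.2 and 20.1 RPKM in the same lines, overlapping only in control cells. Dhx58 at 10.9, 14.3 and 16.7 RPKM, Ddx58 at 8.33, 7.74 and 8.22 RPKM and Ifih1 at 5.42, 5.95 and 5.96 RPKM came below, with no overlap between these 3.

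With vehicle the order was different, and no neighbours in it overlapped. Trim25 was first at 16.0 RPKM in sgRNA1 cells, 17.2 in sgRNA2 cells and 16.2 in control cells, and Eif2ak2 second at 6.77, 6.55 and 7.41. Zbp1 was last, at 0.372, 1.30 and 0.0883 RPKM. The RNA helicase Dhx58 took the third place in sgRNA2 cells (4.90 RPKM) but the sixth in sgRNA1 cells (1.31 RPKM) and control cells (0.525 RPKM). With vehicle as with IFN-γ, Trim25 mRNA was thus at a level well above the mRNA of Ddx58, which encodes the receptor that the ligase acts on. With vehicle Ddx58 had 2.57, 3.91 and 1.95 RPKM in the 3 lines, and no protein was measured.

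**Figure D4:**
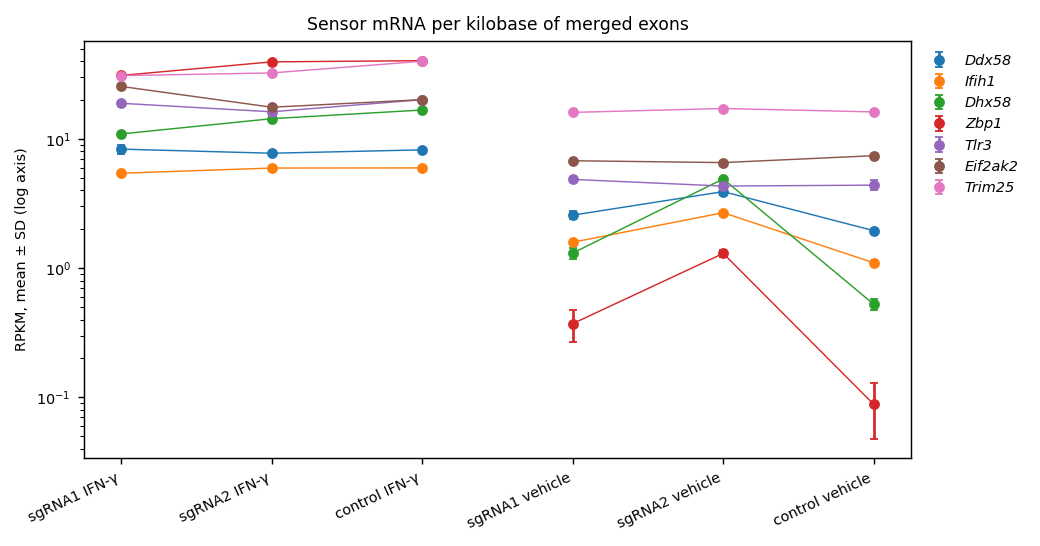
Level of each sensor per kilobase of merged exons (RPKM, log axis, mean ± SD of 2 libraries) in the 6 groups. With vehicle Trim25 is highest and Zbp1 lowest in all 3 lines, with IFN-γ both are at the top, and the line of Dhx58 crosses those of Tlr3, Ddx58 and Ifih1 in sgRNA2 cells with vehicle.

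Over the 12 libraries the log2 levels of Ddx58, Ifih1, Dhx58 and Zbp1 moved together, with Pearson's r of 0.963 to 0.994 over their 6 pairs. Among Tlr3, Eif2ak2 and Trim25 r was 0.937 to 0.981 over 3 pairs, and between these 2 sets it was 0.807 to 0.960 over 12 pairs. The sets were formed after the values were seen, the libraries are in pairs of the same group, and most of the range lies between the treatments, so these values are descriptions. The transcripts most like each sensor were taken among genes that averaged 1 CPM or more. Ddx58 was most like H2-Q6 (0.996), Cul7 (0.995) and H2-Q4 (0.995), 2 of them MHC class I genes of a family whose members share reads. Ifih1 was most like Rtp4 (0.999), Psmb9 (0.998) and Xaf1 (0.998), and Dhx58 most like Sp140 (0.998), Rtp4 (0.994) and Uba7 (0.994). The nearest to Zbp1 were Parp12 (0.999), Gbp9 (0.998) and Gbp2b (0.997). Tlr3 was most like Iigp1, Cxcl9 and Ciita (0.994 to 0.995), Eif2ak2 most like Tmcc3, Gvin2 and Ogfr (0.994 to 0.995), and Trim25 most like AU020206 (0.998), Shisa5 (0.997) and Batf2 (0.995).

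Around the sensors stands a list of 94 pathway genes, of which 81 were tested. With IFN-γ against vehicle, 48 (59.3%) were called higher and 19 (23.5%) lower in sgRNA1 cells, beside 31.7% and 29.6% over all tested genes. In sgRNA2 cells 46 (56.8%) were higher and 12 (14.8%) lower, beside 30.5% and 29.2%. In control cells 44 (54.3%) were higher, beside 36.4% over all genes, and 30 (37%) lower, near the 34.1% over all genes. The median log2 fold change in control cells was 0.42 beside 0.011 over all genes. Of the adaptors that carry the signal onward, 8 of 10 were higher and 1 lower in control cells, with a median of 0.78; the shares of 36.4% higher and 34.1% lower over all genes hold for this and the following lists. They include Ticam1, the adaptor of Tlr3, with 24.0 and 23.4 CPM with IFN-γ, against 6.15 and 6.87 CPM with vehicle (log2 1.87 ± 0.11, adjusted p = 4.78e-11). Unc93b1, which escorts endosomal Toll-like receptors, was also called higher (2.98 ± 0.64, adjusted p = 0.000421), on 25 and 18 reads with IFN-γ, against 5 and 0 reads with vehicle.

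Among kinases and transcription factors 7 of 11 were higher and 3 lower in control cells, with a median of 0.45. Irf7, a master regulator of type I interferon genes, had 62.5 and 66.7 CPM with IFN-γ, against 0.826 and 0.786 CPM with vehicle (6.31 ± 0.11, adjusted p = 1.06e-18). Irf1, another interferon regulatory factor, had 776.6 and 779.5 CPM with IFN-γ, against 22.6 and 26.6 CPM with vehicle (4.98 ± 0.06, adjusted p = 4.88e-21). Among ubiquitin enzymes and regulators 14 of 22 were higher and 6 lower (median 0.63), led by Nlrc5 (4.27 ± 0.07, adjusted p = 4.81e-19), known for driving MHC class I genes, and the antibody receptor and ubiquitin ligase Trim21 (3.43 ± 0.14, adjusted p = 1.89e-13).

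Of the other RNA sensors and cofactors, 5 of 14 (35.7%) were higher in control cells, near the 36.4% over all genes, and 9 (64.3%) were lower, beside 34.1%, with a median of -0.53. The largest change was upward, in Ddx60, a helicase that assists RIG-I-like receptors (4.21 ± 0.10, adjusted p = 1.52e-16). Of 8 DNA sensors 5 were higher and 3 (37.5%) lower, the second near the share over all genes, led by Ifi203 (3.24 ± 0.05, adjusted p = 3.7e-19) and Mndal (3.16 ± 0.07, adjusted p = 3.68e-17), members of a gene family whose near-identical copies can share reads. Of 7 nucleases 2 (28.6%) were higher and 3 (42.9%) lower, both near the shares over all genes, the higher being Samhd1 (2.30 ± 0.04, adjusted p = 2.73e-18), which depletes nucleotides, and Trex1 (1.47 ± 0.20, adjusted p = 2.19e-06), which degrades cytosolic DNA. In the eIF2α branch 3 of 9 (33.3%) were higher, near the share over all genes, and 5 (55.6%) lower, and the largest changes were in Ddit3 (2.38 ± 0.08, adjusted p = 9.08e-15) and Eif2ak3 (1.06 ± 0.08, adjusted p = 1.99e-09).

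In vehicle the shares of pathway genes called lay near those of all genes, except for the larger share called lower in sgRNA2 cells. In sgRNA1 cells 20 of 81 (24.7%) were higher and 25 (30.9%) lower than in control cells, beside 25.6% and 26.9% over all genes, with a median of -0.03 beside 0.03. In sgRNA2 cells 31 (38.3%) were higher and 35 (43.2%) lower, beside 38.3% and 35%, with a median of -0.08 beside 0.06. Of the kinases and transcription factors, 7 of 11 were higher and 1 lower in sgRNA1 cells (median 0.28), and 8 of 11 higher and 3 lower in sgRNA2 cells (median 0.46). The other RNA sensors and cofactors, the list that holds Ddx60, went the other way. In sgRNA1 cells 3 of 14 were higher and 8 (57.1%) lower (median -0.22), and in sgRNA2 cells 3 were higher and 10 (71.4%) lower (median -0.48). Medians of the remaining lists lay between -0.15 and 0.29 in sgRNA1 cells and between -0.18 and 0.07 in sgRNA2 cells. The transcription factor Irf7 had 2.01 and 2.05 CPM in sgRNA1 cells, 8.71 and 8.62 CPM in sgRNA2 cells and 0.826 and 0.786 CPM in control cells. It was called higher in sgRNA1 cells (1.33 ± 0.23, adjusted p = 7.94e-05) and in sgRNA2 cells (3.42 ± 0.16, adjusted p = 1.62e-12). Ddx60 stood in the same order, at 5.89 and 4.71 CPM in sgRNA1 cells, 18.6 and 19.7 CPM in sgRNA2 cells and 2.69 and 2.46 CPM in control cells, and was called higher in both lines (1.05 ± 0.15, adjusted p = 1.37e-05, and 2.89 ± 0.12, adjusted p = 2.51e-13).

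The rule for the largest changes also took Unc93b1, at 9 and 11 reads in sgRNA1 cells and 40 and 31 reads in sgRNA2 cells, against 5 and 0 reads in control cells (2.03 ± 0.73, adjusted p = 0.0257, and 3.82 ± 0.59, adjusted p = 1.28e-05). Irf5, of the same factor family as Irf7, had 2.97 and 1.69 CPM in sgRNA1 cells, 4.41 and 4.14 CPM in sgRNA2 cells and 1.24 and 0.472 CPM in control cells, and was called higher in both guide lines (1.46 ± 0.34, adjusted p = 0.00142, and 2.31 ± 0.31, adjusted p = 2.07e-06). Ddx21, a mostly nucleolar helicase, was the only one of these that was lower. It had 240.4 and 233.7 CPM in sgRNA1 cells, 64.5 and 70.3 CPM in sgRNA2 cells and 384.9 and 402.9 CPM in control cells (-0.73 ± 0.05, adjusted p = 6.74e-10, and -2.55 ± 0.05, adjusted p = 4.85e-17).

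With IFN-γ, 28 of 81 pathway genes (34.6%) were higher and 26 (32.1%) lower in sgRNA1 than in control cells, near the 31.6% and 33.3% over all genes. In sgRNA2 cells 25 (30.9%) were higher and 31 (38.3%) lower, beside 30.2% and 31.6%. The largest changes in sgRNA1 cells were in the helicase Dhx33 (1.63 ± 0.08, adjusted p = 1e-11), in Ppp1r15a (1.49 ± 0.09, adjusted p = 1.8e-10) and Atf4 (1.18 ± 0.04, adjusted p = 2.48e-13) of the eIF2α branch, and in Mndal (-1.08 ± 0.06, adjusted p = 2.44e-11). In sgRNA2 cells they were in Unc93b1 (1.46 ± 0.38, adjusted p = 0.00274), in Eif2s1, which encodes eIF2α itself (1.12 ± 0.05, adjusted p = 1.71e-12), in Atf4 (0.97 ± 0.04, adjusted p = 4.9e-12) and in the ubiquitin ligase Trim56 (-0.83 ± 0.05, adjusted p = 8.87e-11). Atf4 is translated when eIF2α is phosphorylated, but neither translation nor phosphorylation was measured here. Its mRNA had 368.8 and 352.2 CPM in sgRNA1 cells, 314.6 and 311.6 CPM in sgRNA2 cells and 162.6 and 156.6 CPM in control cells. The kinase that joins the sensors to this branch, Eif2ak2, was higher in the first of these lines and lower in the second, as given above.

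**Figure D5:**
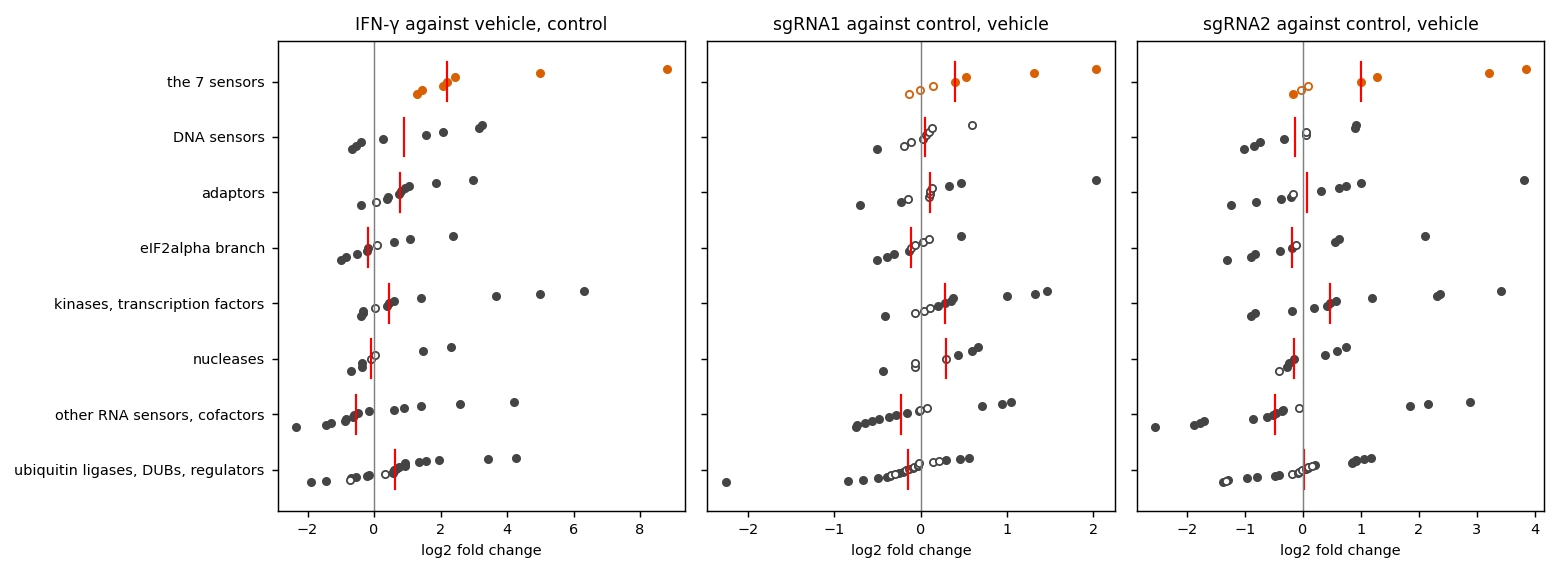
Log2 fold changes of the 7 sensors (orange) and of the tested genes of 7 pathway lists (grey), for IFN-γ against vehicle in control cells and for each guide against control cells in vehicle; filled points were called, open points were not, and red lines are list medians. In control cells with IFN-γ the sensors span 1.30 to 8.80, and in vehicle their medians are 0.39 for sgRNA1 and 1.01 for sgRNA2 cells.

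The end product of RIG-I-like receptor signalling, type I interferon, was close to the detection limit. Ifnb1 had 10 and 6 reads in sgRNA1 cells with IFN-γ, 5 and 8 reads in sgRNA2 cells with IFN-γ and 0 and 2 reads in control cells with IFN-γ. With vehicle it had 0 and 1 reads in sgRNA1 cells, 1 and 0 reads in sgRNA2 cells and 0 and 0 reads in control cells. It did not pass the filter on low counts and was not tested. The other 8 listed type I and III interferon genes had no row in the gene counts and were not analysed. Tlr7, an endosomal sensor of single-stranded RNA, had at most 3 reads in any library and was not tested.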

How the data were processed

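RNA-seq of 12 libraries was deposited by the authors as raw counts per gene (whole reads, not normalized). Per the submitters' processing notes, STAR 2.4.0, HTSeq, DESeq2 1.10 and build mm10 were used; their roles and settings were not stated. From these counts, edgeR 4.0.16 (limma 3.58.1, R 4.3.3) was run with TMM scaling and a filterByExpr filter (minimum count 10, minimum total 15), which kept 13601 genes with 99.965% of all counts and left out 2682. A single quasi-likelihood fit held all 12 libraries as 6 groups (6 residual degrees of freedom, common biological coefficient of variation 4.67%). SE is the absolute log2 fold change divided by the square root of F and so restates the test. Where a group has few reads, as for Zbp1 and Dhx58 with vehicle, it can be smaller than counting error alone. RPKM used merged exons of GENCODE vM21. Symbols of 15941 genes matched that annotation. Alternatives were RLE or upper quartile scaling, no filter, DESeq2 1.42.0, a replicate term, fewer groups and leaving out each library. The test was run on simulated data first. No 2 libraries of a group agreed within sampling noise (chi-square per degree of freedom 2.77 to 7.28).

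The sensors, pathway lists and motifs were chosen with earlier results of these data known. Pathway genes are named by a rule: the 2 largest called changes per list with IFN-γ in control cells, and the 4 largest over all lists for each guide, among genes averaging 1 CPM or more. Of the genes this rule takes, 1 is not reported here.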

Additional observations from a re-analysis of the deposited data

Results flagged for a closer look

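The values below are differences between cell lines in the IFN-γ response (log2, guide line minus control line, or sgRNA2 minus sgRNA1), singled out because the difference itself passed the test. In sgRNA1 against control cells they were -0.38 for Ddx58, -0.66 for Ifih1, -1.92 for Dhx58, -2.41 for Zbp1, -0.24 for Tlr3, 0.47 for Eif2ak2 and -0.36 for Trim25. In sgRNA2 against control cells they were -1.09 for Ddx58, -1.29 for Ifih1, -3.44 for Dhx58, -3.88 for Zbp1, -0.29 for Tlr3 and -0.39 for Trim25. In sgRNA2 against sgRNA1 cells they were -0.72 for Ddx58, -0.63 for Ifih1, -1.52 for Dhx58, -1.47 for Zbp1 and -0.49 for Eif2ak2. The first 2 sets share the control libraries.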

How the results depend on the processing

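All 7 sensors were called higher with IFN-γ in the 3 lines under each of the 18 alternatives (2 scalings, no filter, DESeq2, a replicate block, fewer groups, and leaving out each library). The count of sensors called in sgRNA2 against control cells with IFN-γ was 4, but 2 with upper quartile scaling; the cause was not tested. Every other count of sensors, and every count of all genes called, stayed within 1.5 times its value. Upper quartile scaling also moved the share of higher calls to 38.1%, against 51.1% with TMM, for IFN-γ in sgRNA2 cells. It shifted the median gene there by -0.12, and by 0.11 in sgRNA2 against control cells with IFN-γ.

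Values that were not called changed sign under some settings (all log2). With upper quartile scaling, Trim25 in sgRNA1 against control cells was 0.093 and Tlr3 in sgRNA2 against control cells 0.14, both in vehicle. In sgRNA2 against control cells with IFN-γ, Ddx58 was 0.018, Ifih1 0.10 and Zbp1 0.074, and Eif2ak2 in sgRNA2 against sgRNA1 cells with vehicle was 0.017. Ddx58 in sgRNA1 against control cells with IFN-γ was -0.0034 with RLE size factors and -0.0031 with DESeq2, and Ifih1 in sgRNA2 against control cells with IFN-γ was 0.013 in a fit of those groups only.

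Leaving out 1 library gave the following ranges. Against control cells in vehicle, Trim25 in sgRNA1 cells ran between -0.054 and 0.029 and Tlr3 in sgRNA2 cells between -0.12 and 0.059. With IFN-γ, Ddx58 in sgRNA1 cells ran between -0.072 and 0.098 and Ifih1 in sgRNA2 cells between -0.0100 and 0.026. The difference of responses ran between -0.043 and 0.090 for Eif2ak2 in sgRNA2 against control cells. In sgRNA2 against sgRNA1 cells it ran between -0.093 and 0.0084 for Tlr3 and between -0.069 and 0.035 for Trim25. A group left with 1 library was assumed to vary like the other groups.

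Libraries with the same replicate number did not deviate together (r of -0.079 to 0.064 over 15 pairs of groups), and the fit with the replicate block changed none of the 84 sensor calls. Calls of the lowest transcript, Zbp1 in control cells with vehicle, rest on 12 reads in all.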
